A study of Homo sapiens with 24 samples.

Results

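Untreated SU-DHL-4 cells were compared with untreated Oci-Ly-2 cells. Both are established lines of diffuse large B-cell lymphoma (DLBCL), and the labels give both the same source, DLBCL-GCB, the germinal centre B-cell-like class. Of the 24 arrays in the series, the 8 control arrays of these lines were used: 2 arrays at 0 h and 2 at 12 h without artesunate for SU-DHL-4, and the same for Oci-Ly-2. The series was made to follow the response to artesunate, an antimalarial drug, in 3 B-cell lymphoma lines, so this comparison gives the state of the cells without the drug. The labels describe the controls as given no treatment, whereas the text of the study speaks of vehicle, so the 12 h controls may have received solvent; untreated here means without artesunate. The 8 arrays of the same lines after 4 or 12 h with 5 μM artesunate, and the 4 control arrays of the Burkitt lymphoma line BL-41, serve below only to place that baseline. Each line is a single cell line, and the 2 arrays of a group are described by the submitters as technical replicates, and p-values here reflect array-to-array spread only, not that of separate cultures or lymphomas.

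Germinal centre B-cells mutate and select their B-cell receptors, and BCL6, a transcriptional repressor, holds them in that state. On leaving it, cells switch on NF-kB and IRF4 and later the plasma cell factor XBP1, and DLBCL is commonly divided into a germinal centre B-cell-like and an activated B-cell-like class by genes of these stages. B-cells also present antigen, through MHC class I molecules on nearly all nucleated cells and through MHC class II molecules on B-cells and other presenting cells. Loss of either is well known in DLBCL.

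Total RNA was hybridised to Illumina HumanHT-12 v4 arrays, on which a probe reads part of a transcript. Median raw signals of the 8 arrays lay between 85.9 and 110.4, and between 16156 and 17921 probes were detected per array (detection p under 0.05 against the array's negative controls). Values are background-corrected, quantile-normalized log2 signals, and a log2 difference is SU-DHL-4 minus Oci-Ly-2, so that positive values were higher in SU-DHL-4. The first principal component of the 8 arrays held 80.1% of the variance and separated the lines. SU-DHL-4 0 h replicate 1 lay apart on the second component, at 31.0 against -20.3 to 8.85 for the other 7 arrays, and the 0 h arrays of SU-DHL-4 differed most from each other, with a median absolute difference of 0.226 against 0.163 to 0.170 in the other groups.

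The lines differed widely. Of 9839 genes tested, 3007 (30.6%) were called at an absolute log2 difference over 0.5 and an adjusted p under 0.01 (limma, Benjamini-Hochberg). Of these 1440 (14.6%) were higher in SU-DHL-4 and 1567 (15.9%) higher in Oci-Ly-2. The median absolute log2 difference of the called genes was 0.93, and 1344 of them exceeded 1, 378 exceeded 2 and 159 exceeded 3. The 4 arrays of a line did not overlap those of the other for 4425 genes (45%), with SU-DHL-4 above for 2059 (20.9%) and Oci-Ly-2 above for 2366 (24%). Over all genes tested the median log2 difference was -0.025. For 205 genes the probe was detected on all 4 SU-DHL-4 arrays and on none of Oci-Ly-2, and for 320 genes the reverse held. ACTB and GAPDH, structural and glycolytic genes often used as references, had log2 differences of 0.13 (95% interval -0.10 to 0.37) and 0.20 (-0.03 to 0.44) and were not called. Without SU-DHL-4 0 h replicate 1 the count was 2970, and 2774 of the 3007 genes were called in the same direction.

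YBX3, a cold-shock domain protein that binds DNA and RNA, and PHGDH were among the largest differences. The log2 signal of YBX3 was 4.22, 4.33, 4.28 and 4.32 on the SU-DHL-4 arrays and 11.91, 11.77, 11.59 and 11.68 on the Oci-Ly-2 arrays, in the order 0 h replicates 1 and 3 and 12 h replicates 1 and 3. SU-DHL-4 signal was not above background on any array, and Oci-Ly-2 was at least 120-fold higher (adjusted p = 4.52e-11); such bounds set the bright line against the lowest detected signal of each array in the other line. PHGDH, the first enzyme of serine synthesis from glucose, was at 4.48, 4.51, 4.71 and 5.08 in SU-DHL-4 against 11.84, 12.16, 12.13 and 12.17 in Oci-Ly-2. It was detected on 1 of the 4 SU-DHL-4 arrays, so that the measured log2 difference is taken mostly against background, and it was -7.38 ± 0.12 (SE; adjusted p = 7.17e-11). No array of the lines overlapped for either gene.

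In the other direction TUBB3, a beta-tubulin best known from neurons, was at 11.29, 11.49, 11.37 and 11.78 in SU-DHL-4 against 4.92, 4.75, 4.94 and 4.34 in Oci-Ly-2. The log2 difference was 6.74 ± 0.16 (SE; adjusted p = 5.3e-10), with detection on 2 of 4 Oci-Ly-2 arrays. BASP1, a membrane-associated protein abundant in growing axons, differed by 6.56, and GTSF1, which acts with piRNAs in the germ line, by 6.23. DCN, the matrix proteoglycan decorin of fibroblasts, was at 10.18 to 10.36 in SU-DHL-4 and undetected in Oci-Ly-2 and in BL-41, at least 44.9-fold higher. The non-muscle myosin MYH10 was at least 33.6-fold higher and the transcription factor RFX7 at least 20.3-fold higher in SU-DHL-4. Among genes higher in Oci-Ly-2 were CD24, a surface glycoprotein of early B-cells, with a log2 difference of -5.55, ANXA2, a membrane-binding annexin, with -5.58, TSPO, a mitochondrial outer membrane protein, with -4.91, and the G-protein subunit GNG11, at least 38.6-fold higher. Other, dimmer probes gave smaller differences, all called: -3.16 and -0.70 for ANXA2, -1.52 for TSPO and -4.28 for CD24. These genes were chosen for size and for arrays that do not overlap between the lines, and the plot of the largest differences shows their values as a description.

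**Figure D1:**
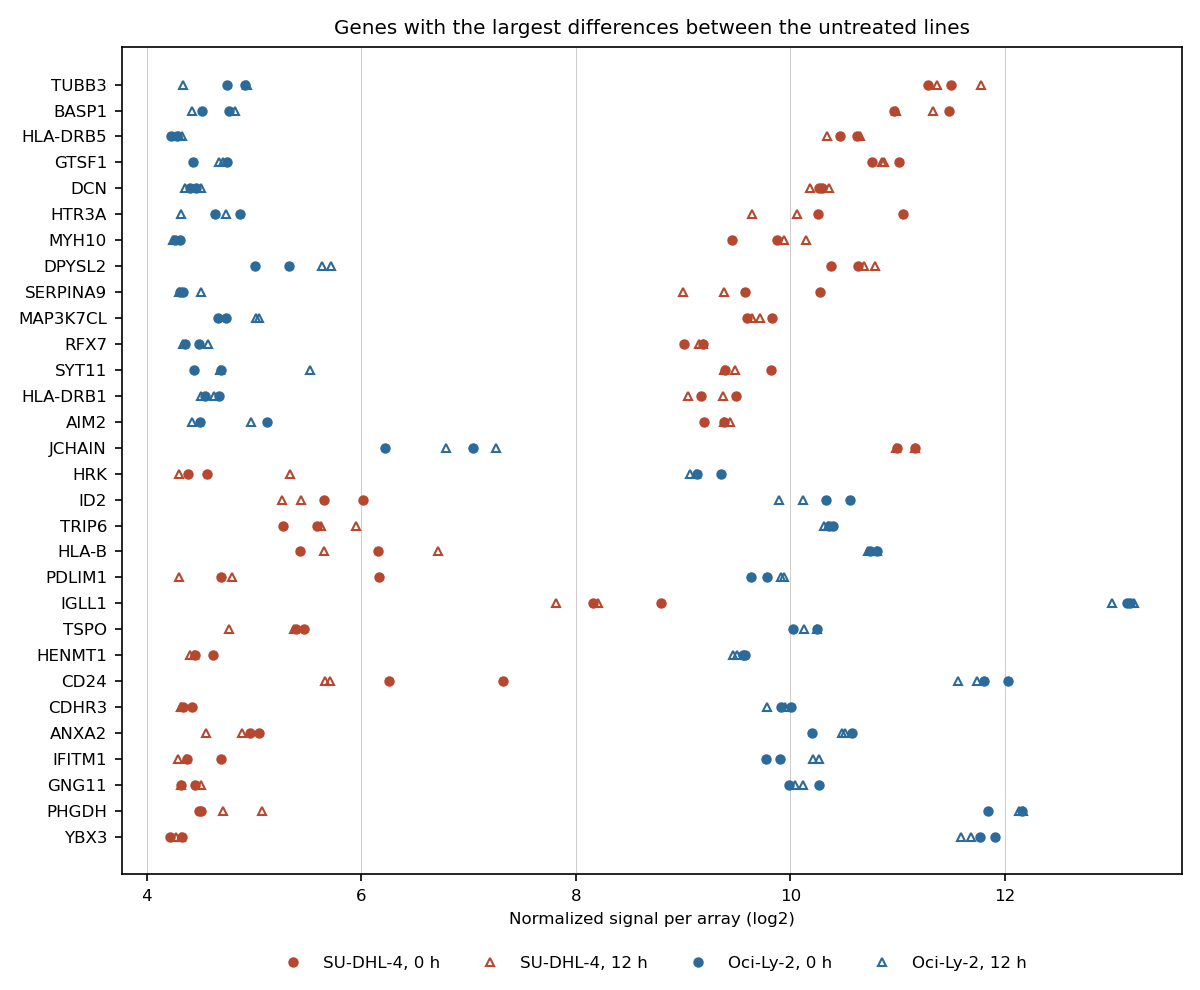
Normalized log2 signal (x axis) on each of the 8 untreated arrays for the 15 genes with the largest differences in each direction (y axis), SU-DHL-4 in red and Oci-Ly-2 in blue, circles for 0 h and triangles for 12 h. Genes were chosen for separated arrays; the values near the bottom of the scale, such as YBX3 at 4.22 to 4.33 in SU-DHL-4, include arrays not above background.

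Germinal centre genes were mostly higher in SU-DHL-4. Of 24 tested members of a list of germinal centre B-cell genes, 15 were higher in SU-DHL-4, with 4 higher in Oci-Ly-2. The share was 79.2% in all against 30.6% of all genes, with a median log2 difference of 1.19 against -0.025. SERPINA9, a serpin made by germinal centre B-cells, was at 10.27, 9.58, 9.38 and 9.0 in SU-DHL-4 against 4.31, 4.33, 4.30 and 4.50 in Oci-Ly-2. It was not above background on any Oci-Ly-2 array and was at least 27.3-fold higher in SU-DHL-4 (adjusted p = 1.21e-08). RGS13, which dampens chemokine receptor signals in germinal centres, was at least 18.7-fold higher, the kinase gene NEK6 at least 8.91-fold and the transcription factor MYBL1 at least 4.49-fold. CD38, an ectoenzyme of germinal centre and plasma cells, differed by 3.04 and ITPKB, a kinase that turns over inositol trisphosphate, by 2.60.

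BCL6 itself was detected in both lines, at 11.66, 11.33, 11.52 and 11.35 in SU-DHL-4 against 10.16, 9.79, 9.71 and 9.61 in Oci-Ly-2. The arrays did not overlap, and SU-DHL-4 was 3.13-fold higher (log2 difference 1.64 ± 0.13 SE, adjusted p = 2.76e-06). Higher in Oci-Ly-2 were BACH2, a repressor that delays plasma cell development (-1.60), GCSAM (-1.05), MME, the CD10 peptidase (-0.60), and CCND3, cyclin D3 of dividing germinal centre cells (-0.58). A second, dimmer MME probe gave -0.041 and was not called. The call of CCND3 was lost without Oci-Ly-2 0 h replicate 1 or 3, Oci-Ly-2 12 h replicate 3, SU-DHL-4 0 h replicate 1 or SU-DHL-4 12 h replicate 3 (-0.59 to -0.46). LMO2, TCF3, EZH2, POU2AF1 and STRBP had log2 differences from -0.30 to 0.57 and were not called. Oci-Ly-2 thus carried the same label as SU-DHL-4 and had several defining markers of the class, BCL6 and MME among them, well above background, while 4 others (SERPINA9, RGS13, NEK6 and MYBL1) were not above background on any of its arrays.

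Genes of activated B-cells went mostly the other way, as the plot of the members of 4 lists shows. Of 19 tested, 12 were higher in Oci-Ly-2, with 2 higher in SU-DHL-4, or 73.7% against 30.6% of all genes, and the median was -0.67. ETV6, an ETS family repressor, was at 4.29 to 4.43 in SU-DHL-4, not above background on any array, and at 7.97 to 8.29 in Oci-Ly-2, at least 9.73-fold higher. For TNFRSF13B, the receptor TACI, Oci-Ly-2 exceeded SU-DHL-4 by at least 3.49-fold, and CCDC50 and the transcription factor CREB3L2 differed by -2.20 and -2.19. IRF4 was low in both lines, at 4.48, 5.07, 5.35 and 4.74 in SU-DHL-4 against 5.88, 6.25, 5.71 and 5.91 in Oci-Ly-2 (log2 difference -1.02, adjusted p = 0.00151), and was detected on 2 of the 4 SU-DHL-4 arrays. Its partner BATF was undetected in SU-DHL-4 arrays, which Oci-Ly-2 exceeded by at least 1.78-fold. The 2 members higher in SU-DHL-4 were PIM1, a serine kinase, by at least 1.87-fold, and the survival gene BCL2A1, by at least 1.27-fold. The call of BCL2A1 was lost under 10 of 24 alternatives. With the deposited processed values, which carry no background correction, 7 members were called, all higher in Oci-Ly-2. The NF-kB list, of subunits, regulators and targets, did not follow: 8 of 23 tested genes were higher in SU-DHL-4, against 2 lower there. Its called share was 43.5% and its median log2 difference 0.16. Plasma cell genes were divided, with 4 of 13 tested higher in SU-DHL-4 and 3 lower (53.8% called). The lists of these later stages thus had no common direction.

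**Figure D2:**
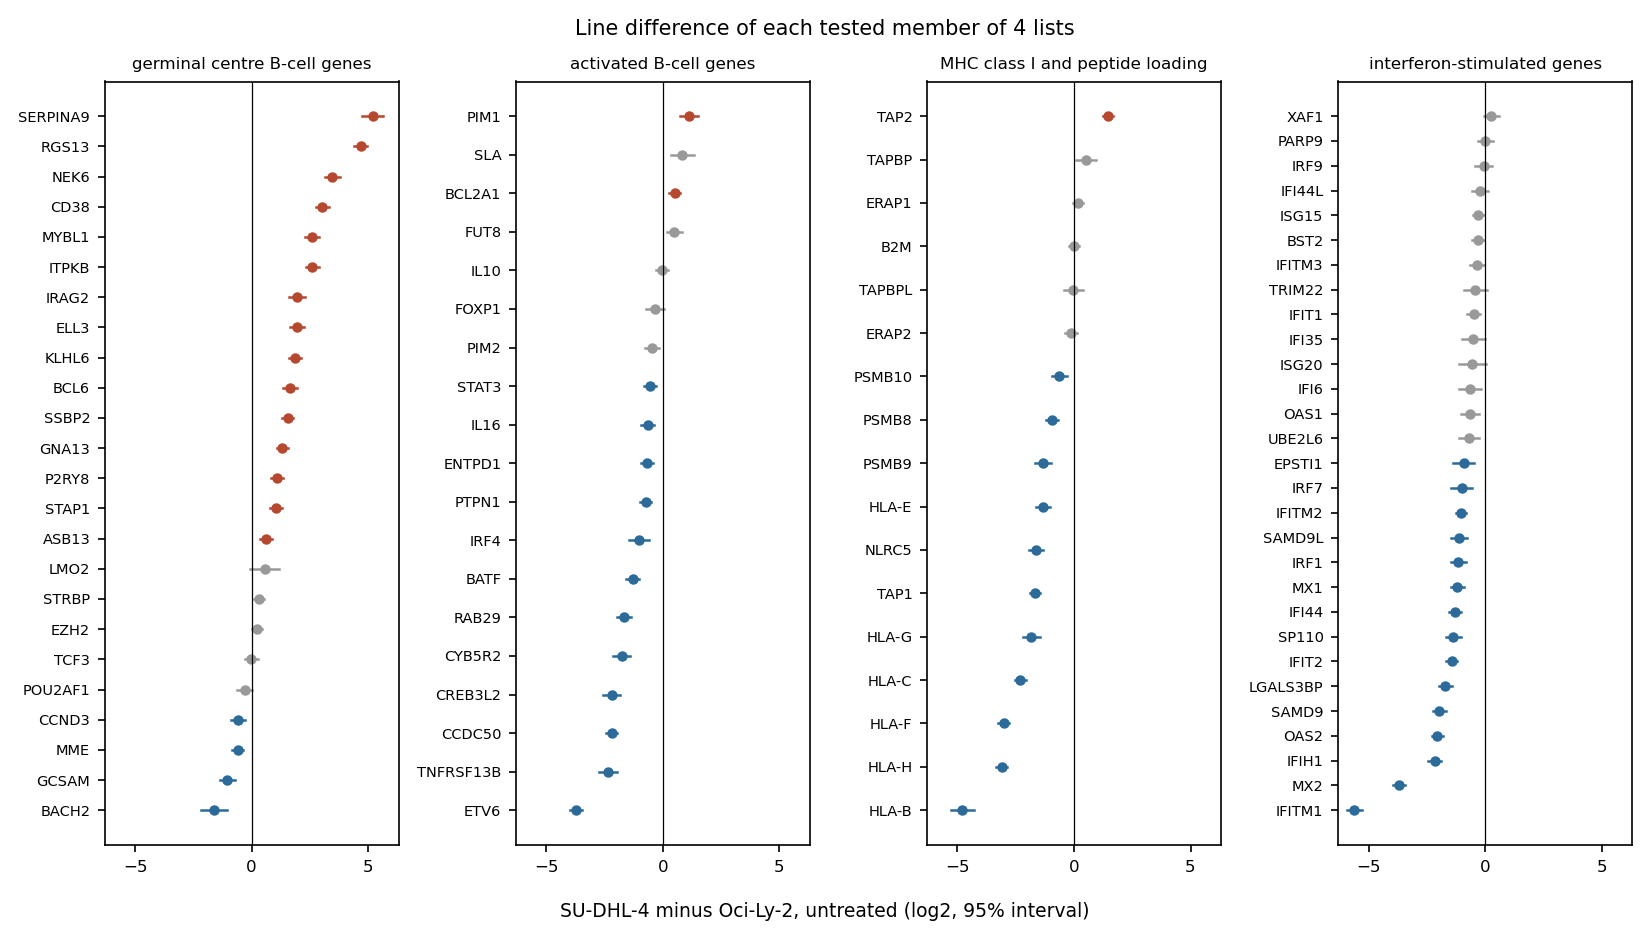
Log2 difference between the untreated lines (x axis, SU-DHL-4 minus Oci-Ly-2) with its 95% interval for every tested member of 4 lists (y axis), red where called higher in SU-DHL-4, blue where called higher in Oci-Ly-2 and grey where not called. Called germinal centre genes lie mostly to the right (15 of 19), and called activated B-cell genes (12 of 14), MHC class I genes (11 of 12) and interferon-stimulated genes (15 of 15) mostly to the left.

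The B-cell receptor signals through CD79A and CD79B, the kinases LYN, BLK, SYK and BTK, and adaptors and exchange factors such as VAV1 that lead to phospholipase and protein kinase C. Of 22 tested genes of the receptor and its proximal signalling, 8 were higher in SU-DHL-4, with 5 higher in Oci-Ly-2 (59.1%, against 30.6% of all genes). VAV1, the main exchange factor of blood cells, was at 7.99, 8.19, 7.73 and 7.54 in SU-DHL-4 against 4.55, 4.38, 4.49 and 4.31 in Oci-Ly-2, where it was never detected, a difference of at least 8.44-fold. BTK, the target of ibrutinib, was at 9.51, 9.09, 9.61 and 9.29 against 7.05, 6.50, 7.03 and 6.85, a 5.73-fold difference (adjusted p = 3.92e-07). All SU-DHL-4 arrays lay above all Oci-Ly-2 arrays for both genes. BLK differed by 2.48, the inhibitory receptor CD22 by 2.17, the phosphatase PTPN6 by 2.17, LYN by 1.27 and CD79A by 1.22.

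Protein kinase C beta, PRKCB, which links the receptor to NF-kB, was higher in Oci-Ly-2. Its brightest probe read 7.42, 5.34, 6.31 and 4.79 in SU-DHL-4 against 10.47, 10.06, 10.14 and 10.08 in Oci-Ly-2, a log2 difference of -4.22 ± 0.43 (SE; adjusted p = 2.12e-05). The SU-DHL-4 arrays were spread widely, with SU-DHL-4 0 h replicate 1 the highest, and the other 4 probes gave -3.54, -2.06, -2.02 and -1.47, all called. FYN (-1.32) and the adaptor BANK1 (-0.93) were also higher in Oci-Ly-2, although other, dimmer FYN probes gave -0.30 and -0.55 and were not called. The brightest VAV3 probe gave -1.10 and another probe of the gene 1.22, both called, so VAV3 has no settled direction, and the list count holds it by the brightest probe. SYK (-0.07), CD81 (0.05), PLCG2 (-0.20) and CD79B (-0.40) were not called, although another of the 3 CD79B probes was (-0.61, adjusted p = 0.00128).

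B-cell surface proteins and transcription factors differed in both directions. Of 27 surface proteins tested, 13 were higher in SU-DHL-4, with 7 higher in Oci-Ly-2 (74.1%, against 30.6% of all genes). TNFRSF17, the receptor BCMA, was at least 9.83-fold higher in SU-DHL-4, and FCRL2 (2.25), FCRLA (1.86), the homophilic receptor SLAMF6 (1.72) and CD48 (1.38) were also higher there. FCRL2 was detected on 2 of 4 Oci-Ly-2 arrays. CD52, the target of alemtuzumab, was higher in Oci-Ly-2 (-1.10), whereas MS4A1, which encodes CD20, had a log2 difference of 0.060 and was not called. Of 31 transcription factors, 13 were higher in SU-DHL-4, with 8 higher in Oci-Ly-2 (67.7%, against 30.6% of all genes). Besides MYBL1 and BCL6, those higher in SU-DHL-4 included RUNX3 (3.22), MEF2C (2.23), LEF1 (1.37) and IRF8 (1.28). ID2, an inhibitor of E proteins, was at 6.02, 5.65, 5.44 and 5.26 in SU-DHL-4 against 10.55, 10.33, 10.12 and 9.90 in Oci-Ly-2 (24.8-fold, adjusted p = 8.08e-10), and the E protein TCF4 was higher in Oci-Ly-2 as well (-3.57). The arrays of the lines did not overlap for ID2 or TCF4.

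MHC class I genes were lower in SU-DHL-4. Of 17 tested genes of class I and its peptide loading, 11 were higher in Oci-Ly-2, with 1 higher in SU-DHL-4. The share was 70.6% in all against 30.6% of all genes, with a median log2 difference of -1.32. HLA-B, a class I heavy chain, was at 6.15, 5.42, 6.71 and 5.65 in SU-DHL-4 against 10.74, 10.81, 10.72 and 10.81 in Oci-Ly-2. It was detected on all arrays, and Oci-Ly-2 was 27.6-fold higher (log2 difference -4.79 ± 0.23 SE, adjusted p = 6.1e-08). The heavy chain genes HLA-H (-3.09, a pseudogene), HLA-F (-3.02), HLA-C (-2.30), HLA-G (-1.83) and HLA-E (-1.33) followed, and since these are near-identical copies, how far each probe reads its own gene is uncertain. HLA-C and HLA-G were each detected on 1 of 4 SU-DHL-4 arrays, so their differences are mostly against background. A second, dimmer HLA-F probe gave -0.37 and was not called. B2M, the light chain that all class I molecules share, was at 12.12, 12.08, 11.83 and 11.99 in SU-DHL-4 against 11.96, 11.96, 12.03 and 12.02 in Oci-Ly-2. The arrays overlapped, and the log2 difference was 0.011 (95% interval -0.21 to 0.24).

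NLRC5, the transactivator of class I genes, was at 4.55, 4.49, 4.38 and 4.29 in SU-DHL-4, not above background on any array, and at 6.14, 5.92, 5.86 and 6.37 in Oci-Ly-2, at least 2.36-fold higher (adjusted p = 3.57e-06). The peptide transporter subunit TAP1 (-1.68) and the immunoproteasome subunits PSMB9 (-1.32), PSMB8 (-0.96) and PSMB10 (-0.62) were also higher in Oci-Ly-2. TAP2, the other transporter subunit, was higher in SU-DHL-4 (1.46, adjusted p = 5.53e-07). The loading factor TAPBP and the trimming peptidases ERAP1 and ERAP2 had log2 differences of 0.50, 0.16 and -0.12 and were not called.

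Interferon-stimulated genes were higher in Oci-Ly-2 wherever they were called. Of 29 tested, 15 were higher in Oci-Ly-2, with 0 higher in SU-DHL-4, where 51.7% compare with 30.6% over all genes, and the median log2 difference was -0.92. IFITM1, a membrane protein that restricts virus entry and associates with CD81 at the B-cell receptor, was at 4.37, 4.69, 4.29 and 4.37 in SU-DHL-4 against 9.90, 9.77, 10.26 and 10.21 in Oci-Ly-2, at least 36.8-fold higher (adjusted p = 6.81e-10). MX2, a dynamin-like restriction factor, was at least 9.73-fold higher, and IFIH1, a sensor of double-stranded RNA, differed by -2.17, the 2'-5' oligoadenylate synthetase OAS2 by -2.05 and SAMD9 by -1.97. IFIH1 was detected on 1 of 4 SU-DHL-4 arrays. The regulators IRF1 (-1.14) and IRF7 (-1.0) were higher in Oci-Ly-2 too. ISG15 (-0.30), IFI44L (-0.22), BST2 (-0.31) and IRF9 (-0.055) were not called.

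The promoters of these genes were read from RefSeq (GRCh38.p14; 250 bases before to 50 after the start), because 11 of 17 class I genes and 15 of 29 interferon-stimulated genes were called higher in Oci-Ly-2. A core of the interferon-stimulated response element, GAAANNGAAA on either strand (TTTCNNTTTC as printed for the reverse strand), was found in 3.65% of 27305 promoters. Among promoters of genes tested the share was 2.91% of 7941. It was in 7 of the 10 promoters held for interferon-stimulated genes higher in Oci-Ly-2 and in 7 of the 13 for the other tested members, and in 3 of 8 and 4 of 6 promoters of the corresponding class I groups. Promoters of 3 genes are printed with matches in capitals, to set a gene near-absent in SU-DHL-4 (IFITM1) and a class I heavy chain (HLA-F) beside B2M, which was not called. The promoters of the heavy chains HLA-B, HLA-C and HLA-G held 0 matches to this exact string. Looser forms and other spacings were not searched, so 0 matches does not show that a response element is absent.
IFITM1, chr11:313790-314089, plus strand: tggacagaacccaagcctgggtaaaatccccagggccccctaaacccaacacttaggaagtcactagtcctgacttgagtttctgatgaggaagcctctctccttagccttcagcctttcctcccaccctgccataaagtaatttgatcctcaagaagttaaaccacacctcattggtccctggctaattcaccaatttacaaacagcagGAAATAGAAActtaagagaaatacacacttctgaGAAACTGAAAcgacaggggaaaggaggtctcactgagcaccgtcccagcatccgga
HLA-F, chr6:29723184-29723483, plus strand: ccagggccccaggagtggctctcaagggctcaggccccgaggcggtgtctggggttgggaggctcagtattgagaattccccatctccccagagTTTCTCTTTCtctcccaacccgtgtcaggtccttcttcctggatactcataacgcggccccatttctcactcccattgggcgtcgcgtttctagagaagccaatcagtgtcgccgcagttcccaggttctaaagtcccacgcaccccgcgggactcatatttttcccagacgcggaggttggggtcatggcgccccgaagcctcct
B2M, chr15:44711267-44711566, plus strand: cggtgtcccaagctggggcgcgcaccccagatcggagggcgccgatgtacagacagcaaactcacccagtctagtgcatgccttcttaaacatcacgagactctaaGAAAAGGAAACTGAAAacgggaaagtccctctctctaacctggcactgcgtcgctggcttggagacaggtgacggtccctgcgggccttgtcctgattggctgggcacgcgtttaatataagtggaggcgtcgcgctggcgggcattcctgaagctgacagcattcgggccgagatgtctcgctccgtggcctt
IFITM1 held 2 separate matches, HLA-F 1 on the reverse strand and B2M 2 that overlap. Whether the matches bear on the difference between the lines was not tested.

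MHC class II presents peptides to helper T cells. Of 17 tested genes, 6 were higher in SU-DHL-4, with 1 higher in Oci-Ly-2 (41.2%, against 30.6% of all genes). The DR beta chain gene HLA-DRB1 was at 9.49, 9.17, 9.37 and 9.04 in SU-DHL-4 against 4.55, 4.67, 4.51 and 4.63 in Oci-Ly-2, at least 22.4-fold higher in SU-DHL-4, and HLA-DRB5 was at least 53.1-fold higher and undetected in BL-41 as well. DR beta genes differ between people in number and sequence and are near-identical copies. HLA-DRB4 gave 1.12 on its brightest probe and -2.94 and -0.23 on its other probes, so it has no settled direction, and the list count holds it by the brightest probe. The invariant DR alpha chain HLA-DRA was high in both lines, with a log2 difference of 0.46 that was under the threshold of 0.5. HLA-DPB1 (2.95), HLA-DOB (2.45) and the invariant chain CD74 (0.67) were higher in SU-DHL-4. CIITA, the class II transactivator, was the member higher in Oci-Ly-2 (-0.69, adjusted p = 0.00851), and its call was lost without any of the 4 Oci-Ly-2 arrays or without SU-DHL-4 replicate 3 of 0 h or 12 h (-0.75 to -0.53).

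Homing receptors and the S1PR2-G13 pathway place B-cells within the lymphoid follicle. Of 22 tested genes, 10 were higher in SU-DHL-4, with 5 higher in Oci-Ly-2 (68.2%, against 30.6% of all genes). Those higher in SU-DHL-4 included the G-protein subunit GNA13 (1.31) and the receptor P2RY8 (1.08), which confine germinal centre B-cells, the integrin subunits ITGB7 (2.51), ITGB2 (1.85) and ITGAL (1.80), and RGS2, at least 5.07-fold higher. Those higher in Oci-Ly-2 were the chemokine receptors CXCR4 (-1.87) and CXCR5 (-1.01), the CXCL12 scavenger ACKR3 (at least 3.98-fold), S1PR4 (at least 3.13-fold), and GPR183 (at least 2.27-fold), an oxysterol receptor that draws activated B-cells outwards.

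Secretory genes and the few immunoglobulin-related genes tested were divided. Of 21 genes listed for immunoglobulin chains, only 4 had a probe: JCHAIN, IGLL1, VPREB3 and VPREB1. No heavy chain or conventional light chain gene was among them, so immunoglobulin expression itself was not measured here. XBP1, the transcription factor of plasma cells and of the unfolded protein response, was at 7.17, 7.28, 7.03 and 7.27 in SU-DHL-4 against 10.72, 10.73, 10.68 and 10.62 in Oci-Ly-2, 11.3-fold higher in Oci-Ly-2 (adjusted p = 1.4e-09), and its other probe gave -3.92. JCHAIN, which joins IgM and IgA units, went the other way, at 11.16, 10.997, 11.16 and 10.98 in SU-DHL-4 against 6.22, 7.04, 6.79 and 7.25 in Oci-Ly-2 (19.0-fold). The surrogate light chain gene IGLL1 of precursor B-cells was 29.5-fold higher in Oci-Ly-2, at 12.998 to 13.20 against 7.82 to 8.79, while VPREB3 was higher in SU-DHL-4 (1.74) and VPREB1 was not called (-0.47). IGLL1 resembles immunoglobulin lambda segments, so its reading is uncertain. Of 24 ER chaperones and folding enzymes, 9 were higher in Oci-Ly-2 and 1, DNAJC10 (0.79), in SU-DHL-4 (41.7%, against 30.6% of all genes). Among the 9 were HSP90B1 (-1.14), HYOU1 (-0.99) and SIL1 (-1.39). HSPA5, the main ER chaperone, was not called (-0.11). With the deposited values 5 of the list were called, 4 of them higher in Oci-Ly-2.

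The BCL2 family balances survival proteins against BH3-only and pore-forming killers. Of 18 tested members, 4 were higher in SU-DHL-4, with 5 higher in Oci-Ly-2 (50%, against 30.6% of all genes). With the deposited values 4 were called. BCL2 was at 6.35, 6.3, 5.97 and 5.84 in SU-DHL-4 against 6.33, 5.70, 5.95 and 6.02 in Oci-Ly-2. The arrays overlapped, with a log2 difference of 0.12 (95% interval -0.21 to 0.45), whereas BL-41 detected BCL2 on 0 of 4 arrays. MCL1, a short-lived survival protein, was 1.97-fold higher in SU-DHL-4 (adjusted p = 4.41e-05). HRK, a BH3-only killer, was at 4.56, 4.38, 4.30 and 5.33 in SU-DHL-4, detected on 1 of 4 arrays, and at 9.35, 9.13, 9.06 and 9.12 in Oci-Ly-2 (log2 difference -4.52, mostly against background, adjusted p = 3.97e-08). BCL2L2 (-1.86), BNIP3 (-1.58) and PMAIP1 (-0.57) were also higher in Oci-Ly-2, and BMF (0.81) in SU-DHL-4. A second, dimmer PMAIP1 probe gave -0.23 and was not called. Of 17 death receptors, caspases and their inhibitors, 7 were higher in Oci-Ly-2 (52.9% called in all, against 30.6% of all genes). CASP4, an inflammatory caspase, differed by -3.56, with detection on 2 of 4 SU-DHL-4 arrays, and the inhibitor CFLAR by -1.17. The TRAIL receptors TNFRSF10A (1.25) and TNFRSF10B (0.77) were the 2 higher in SU-DHL-4.

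MYC, the growth regulator, was at 11.69, 11.36, 11.65 and 11.66 in SU-DHL-4 against 11.89, 11.76, 11.73 and 11.60 in Oci-Ly-2, a log2 difference of -0.16 (95% interval -0.42 to 0.10) that was not called. The study states that it picked its lines by MYC status: mutated in Oci-Ly-2, not translocated in SU-DHL-4 and translocated in BL-41. MXD4, a MAX partner that represses MYC targets, was higher in SU-DHL-4 (3.91), as was MXD1 (0.66), and these were the 2 called of 10 in the network. Of 26 textbook MYC targets 6 were called (23.1%), and of 31 DNA replication and mitosis genes 7 (22.6%), below the 30.6% of all genes. MKI67, the proliferation marker Ki-67, was 3.27-fold higher in SU-DHL-4 (1.71, adjusted p = 4.07e-06), followed by CENPF (1.31) and TOP2A (0.90), while MCM2, PCNA and AURKA were not called. The cyclin-dependent kinase inhibitors CDKN1B (-2.06) and CDKN1A (-1.17) were higher in Oci-Ly-2, and CDKN2D (1.97) and the kinase CDK6 (1.44) in SU-DHL-4. CDKN2D was detected on 2 of 4 Oci-Ly-2 arrays. DEPTOR, an inhibitor within the mTOR complexes, was at least 8.43-fold higher in SU-DHL-4.

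Of 26 genes of the ATF4 pathway and amino acid supply, which cells switch on when amino acids or ER folding fail, 6 were higher in Oci-Ly-2, with 3 higher in SU-DHL-4 (34.6%, near the 30.6% of all genes). PHGDH was by far the largest, but PSAT1 and PSPH, the next enzymes of serine synthesis, had log2 differences of -0.50 and -0.11 and were not called. ATF4 (-0.13) and DDIT3 (0.017), the transcription factors of the pathway, were not called, whereas ATF5 (-1.06), the asparagine synthetase ASNS (-0.69) and the amino acid transporter subunit SLC3A2 (-0.64) were higher in Oci-Ly-2 and PPP1R15A, which restores translation (0.98), in SU-DHL-4.

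Of 32 glutathione, thioredoxin and NRF2 genes, 11 were higher in Oci-Ly-2, with 1 higher in SU-DHL-4 (37.5%, against 30.6% of all genes). GPX1, a glutathione peroxidase, was at 8.53, 8.41, 8.54 and 8.01 in SU-DHL-4 against 11.12, 11.04, 11.004 and 11.14 in Oci-Ly-2, 6.51-fold higher in Oci-Ly-2 (adjusted p = 5.99e-08). GSTM2 was at least 14.1-fold higher and GSTM1 differed by -3.37, although these glutathione transferases are near-identical copies and each reading is uncertain. SOD2, the mitochondrial superoxide dismutase, differed by -1.33 and GSS, glutathione synthetase, by -0.84. The NRF2 gene NFE2L2 (-0.30), its target NQO1 (0.079) and the lipid peroxide reductase GPX4 (-0.020) were not called. GSR, glutathione reductase, gave 1.22 on its brightest probe and -0.13 on a second, dimmer probe that was not called.

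Of 23 iron and heme genes, 5 were higher in Oci-Ly-2, with 3 higher in SU-DHL-4, a share (34.8%) near the 30.6% of all genes. The heme synthesis enzymes CPOX (-2.08), UROS (-1.42) and FECH (-1.04), the iron sensor ACO1 (-1.73) and the ferrireductase STEAP3 (at least 2.56-fold) were higher in Oci-Ly-2, and the mitochondrial iron importer SLC25A37 (1.75) and the heme enzyme PPOX (0.66) in SU-DHL-4. FECH was detected on 2 of 4 SU-DHL-4 arrays. TFRC, the transferrin receptor (0.44), and ferritin light chain FTL (0.20) were not called. Of 24 genes listed for cholesterol and fatty acid synthesis 8 were called, each higher in SU-DHL-4 (33.3%, near the 30.6% of all genes). They included HMGCS1 (1.30), INSIG1 (1.03) and SREBF1 (0.70), but also the sterol exporters ABCA1 (1.52) and ABCG1 (1.27), which are not synthesis genes. The synthesis enzymes FASN (0.014) and DHCR7 (0.0050) were not called. Of 20 glycolysis genes 6 were higher in Oci-Ly-2, with 2 higher in SU-DHL-4 (40%, against 30.6% of all genes). The list's count was 5 without Oci-Ly-2 0 h replicate 3 or without SU-DHL-4 12 h replicate 1. Of 46 respiratory chain and ATP synthase genes 6 were called (13%), the lowest share of the lists of 10 or more tested genes, and NDUFB10 (1.06) was the largest. The count was 3 when the technical replicates were averaged before the fit.

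**Figure D3:**
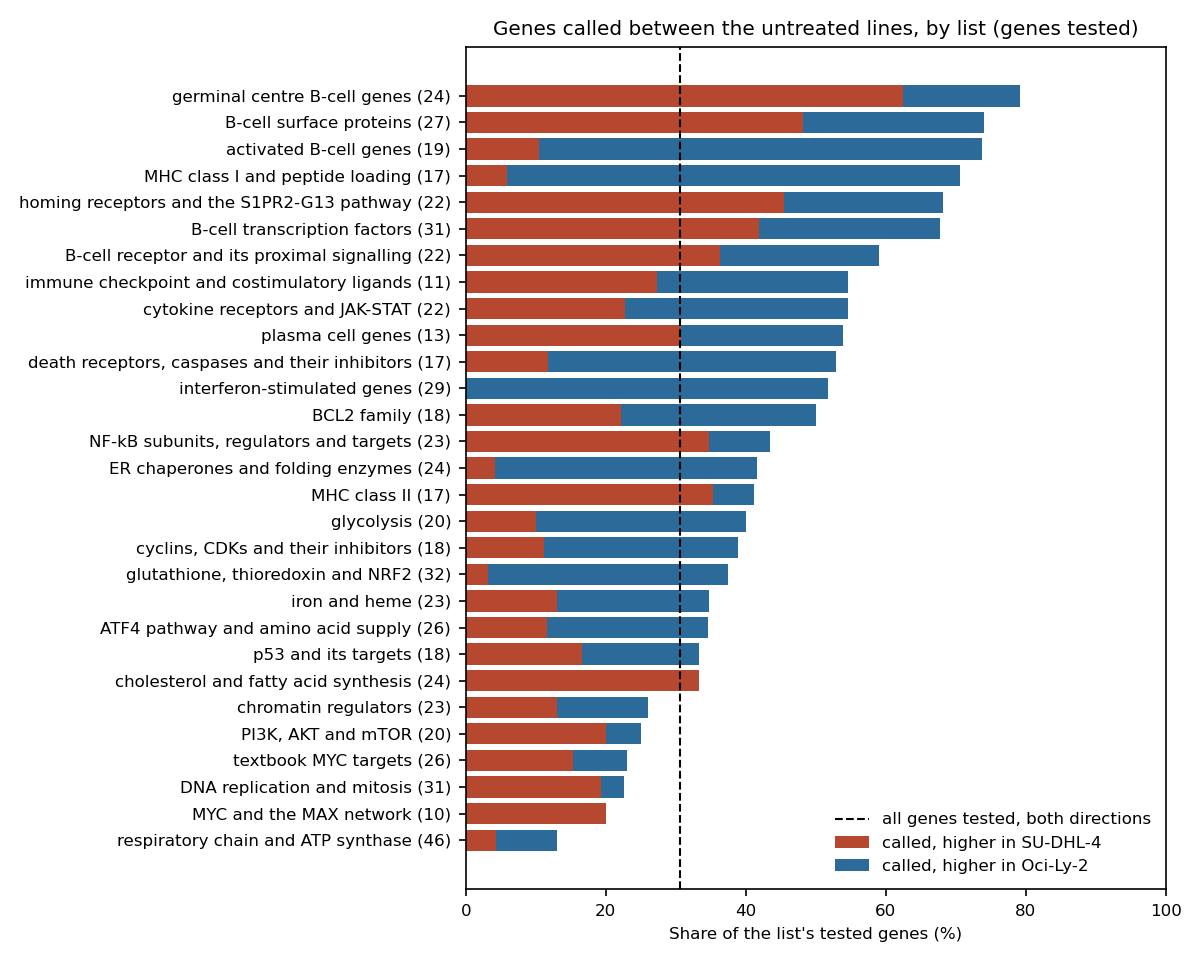
Share of the tested genes of each list (x axis, percent) called higher in SU-DHL-4 (red) or in Oci-Ly-2 (blue), for the lists with 10 or more genes tested (number in brackets, y axis); the dashed line is the 30.6% called of all genes. Germinal centre genes (79.2%) stand at the top and the respiratory chain (13%) at the bottom.

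Few markers of other cell types passed the detection filter, and some that did were well detected. Of 13 NK cell markers 0 were tested, since no probe passed the detection filter, and of myeloid and erythroid markers 4 and 1 were tested and 0 were called (limma); CD68, a lysosomal protein of macrophages, was detected on all 8 arrays, at means of 8.28 and 8.05. All 4 T-cell markers tested were detected on every Oci-Ly-2 array. Of these 4 T-cell markers tested, Oci-Ly-2 had more ZAP70 (at least 3.13-fold) and CD6 (at least 1.2-fold), and LCK was higher in SU-DHL-4 (1.22). Of 3 epithelial and stromal markers tested, DCN was higher in SU-DHL-4 and PECAM1 in Oci-Ly-2 (-1.62). Each array averages over the cells of a culture, so fewer cells with a transcript and less transcript per cell cannot be told apart.

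Across the 9839 genes the log2 difference at 0 h and at 12 h correlated with r = 0.947, as a description across genes. The change from 0 to 12 h in culture was tested for a difference between the lines, and 0 genes were called (limma; 391 had an unadjusted p under 0.05). With 2 arrays per group, that count does not show that the lines changed alike.

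The artesunate arrays, which share no array with the untreated comparison, gave a similar picture. They come from the same lines, were normalized together with the controls and were read on probes filtered on the controls. A lasting difference between the lines would recur on them, so the agreement is a description and not independent support. On them 2993 genes were called between the lines (30.4%), 1444 (14.7%) higher in SU-DHL-4 and 1549 (15.7%) higher in Oci-Ly-2. Of the 3007 genes called untreated, 3004 had the same sign, 2540 (84.5%) were called in the same direction and 0 in the opposite one. PHGDH differed by -7.97 on the artesunate arrays, XBP1 by -3.84, IFITM1 by -5.71, BCL6 by 1.86 and SERPINA9 by 4.91. For PHGDH, IFITM1 and SERPINA9 the dimmer line was at or near background untreated, so the sizes of these differences are uncertain. The 12 h response to artesunate, which uses the 12 h control arrays too, was tested for a difference between the lines, and 0 genes were called (759 had an unadjusted p under 0.05). With 2 arrays per group, that count does not show that the lines responded alike. For XBP1 the response was 0.0071 for SU-DHL-4 and 1.01 for Oci-Ly-2, and for PHGDH -0.39 and 0.80 (adjusted p of the difference = 0.351 for each). The PHGDH value of SU-DHL-4 lies near background and cannot be read as a response.

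**Figure D4:**
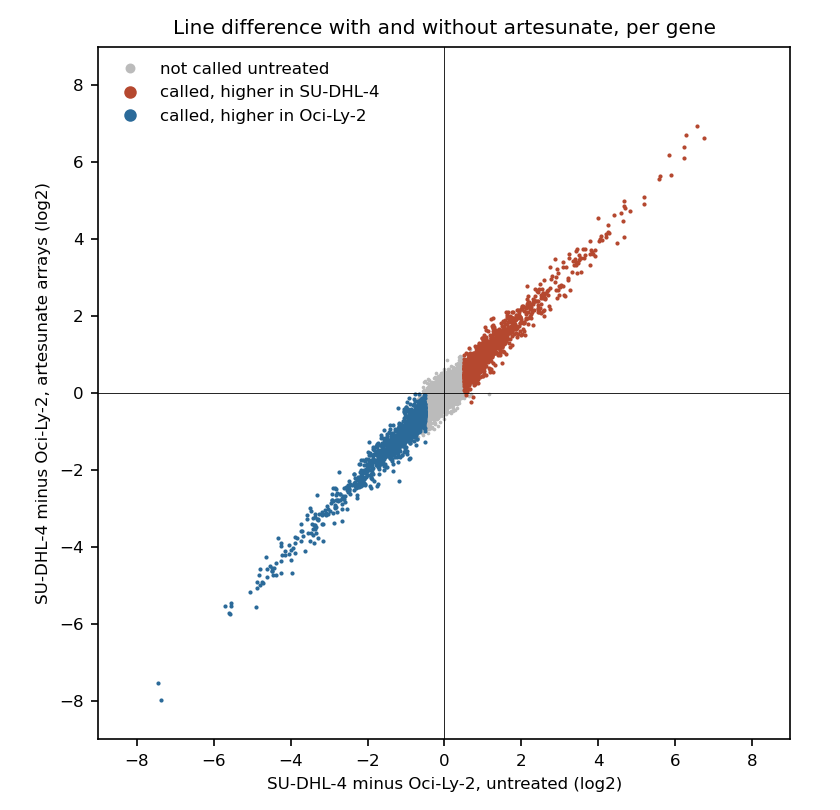
Log2 difference between SU-DHL-4 and Oci-Ly-2 for each of the 9839 genes on the untreated arrays (x axis) and on the artesunate arrays (y axis), red and blue for genes called untreated as higher in SU-DHL-4 or Oci-Ly-2 and grey for the others. Points follow the diagonal (r = 0.973 across genes).

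In BL-41, the Burkitt line, the mean of the 4 control arrays lay nearer SU-DHL-4 for 1502 of the 3007 called genes (50%). It shared with Oci-Ly-2 a high signal of YBX3 (11.17), PHGDH (11.70), IGLL1 (12.38) and HLA-B (10.57), and with SU-DHL-4 a high signal of TUBB3 (10.19), JCHAIN (11.10), RFX7 (9.57) and CD38 (8.44). SERPINA9, DCN and HLA-DRB5 were detected on 0 of its 4 arrays, so of the untreated lines these were detected in SU-DHL-4 only. Its MYC mean was 10.70, below every array of both DLBCL lines.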

How the data were processed

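Average signal intensities, not normalized, and a detection p-value per probe and array were deposited by the authors, together with processed intensities. How the authors made the latter, not given in the sources used here, was checked: they came within 0.0329 (log2) of quantile-normalized signals. The submitters name limma. Here limma 3.58.1 in R 4.3.3 (neqc, offset 16) corrected and normalized all arrays. A symbol was paired with 30112 of 47319 probes, several symbols with 8 and none with 17199. The 17123 probes detected (p under 0.05) by 4 or more of the 8 control arrays were fitted with cell line and time as terms, and p-values adjusted over all of them. The number of arrays limits the precision. A gene took its brightest probe. Arrays of both artesunate times were fitted likewise. Fits were checked on simulated data. Probes with no symbol enter no gene count. Genes were called at the thresholds of the study's methods. The comparison and the gene lists were chosen with earlier results of these data known. Named were the 15 largest differences in each direction with separated arrays, up to 5 called members per list, all members of 8 lists, and MYC, BCL2, BCL6, ACTB and GAPDH; all other genes named, such as NLRC5, B2M, TAP1, BATF and IRF4, were chosen after their values were seen. Genes without a tested probe were not analysed here. Alternatives covered normalization, filters, thresholds, probe choice, the model, a replicate block, single times and leaving out each array.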

Additional observations from a re-analysis of the deposited data

Results flagged for a closer look

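In 92 sets of 4 arrays, 1 line's values for a gene with array values examined or for an array measure, 7 had an end array whose gap to the next was a larger share of the range than Dixon's limit; chance gives about 1 in 20. For MYC in SU-DHL-4 (0.881) the 0 h replicate 3 was lowest, at 11.36 against 11.65 to 11.69. For PHGDH in Oci-Ly-2 (0.888) the 0 h replicate 1 was lowest, at 11.84. For MYBL1 in SU-DHL-4 (0.857) the 12 h replicate 1 was highest, at 7.34, and for GSTM2 in Oci-Ly-2 (0.894) the 12 h replicate 1, at 8.95. ETV6 in SU-DHL-4 (0.90) and SERPINA9 in Oci-Ly-2 (0.844) passed the limit among values not above background. The median raw signal of SU-DHL-4 (0.872) was highest on 12 h replicate 1, at 110.4 against 85.9 to 89.1.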

How the results depend on the processing

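The untreated count of 3007 genes was 1788 with the deposited processed values, 1773 with quantile normalization and no background correction, 1344 at an absolute log2 difference over 1, 1578 on the 0 h arrays alone and 1645 on the 12 h arrays alone. The artesunate count of 2993 was 1841, 1825 and 1313 under the first 3 of these. Leaving out each array gave 2711 to 2970 and 2797 to 2968. No alternative that kept the probe changed the sign of a called gene; taking the probe with the lowest difference changed it for 68 of 3007, among named genes AKT1 (0.19), CD9 (0.082), GSR (-0.13), HLA-DRB4 (-0.23) and PCBP2 (-0.077). Of 198 named genes called, 114 stayed called under every alternative. The tests of time and of the artesunate response gave 0 genes under every alternative run; on group means these could not be fitted. Replicates shared only a number (correlations 0.037 to 0.151): the replicate block gave 3008, 2985, 0 and 0 genes and changed no named call. Low signal limits genes near background to bounds.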

Other observations

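With 9834 tested genes placed in the order of the RefSeq annotation (GRCh38.p14, used for order alone), 34 runs of 5 or more adjacent tested genes were called in the same direction; no expected number was computed. The longest held 10 genes. Higher in SU-DHL-4 were the run from CLPP to CD70, with KHSRP, TUBB4A and TNFSF9 between (median log2 difference 1.14), and that from POMP to HSPH1, with SLC7A1, HMGB1 and ALOX5AP (1.11). Higher in Oci-Ly-2 were the run from LY6E to TIGD5, with GSDMD and EEF1D (-0.91), and that from NOL9 to RERE, with PARK7 and VAMP3 (-1.08). A run of 8 from MYO5A to MNS1 held RFX7 (1.14), a run of 7 from NCSTN to ARHGAP30 held SLAMF1, SLAMF6 and CD48 (1.46), and a run of 7 from CPOX to TFG was higher in Oci-Ly-2 (-1.93).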
